A study of Mus musculus with 6 samples.

Results

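The 10 genes described here carry or report the bone morphogenetic protein (BMP) signal in mouse embryonic stem (ES) cells: the ligand Bmp4, the receptors Bmpr1a and Bmpr2, the signal-carrying SMADs Smad1 and Smad5, the inhibitory SMADs Smad6 and Smad7, and the target genes Id1, Id2 and Id3. They were chosen by symbol, as every probe set of the array whose single gene symbol was one of these names, which gave 24 of 45037 probe sets and 10 of the 18193 genes with a symbol of their own. Where a gene had several probe sets their log2 values were averaged, and each probe set was also followed alone. All 10 genes passed the minimum for testing, a mean log2 value of at least 4 over the 6 arrays, as did 8782 genes in all. Smad6 was higher in the cells that had lost Dcr, and no other member passed the test in either direction.

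The Dcr KO cells were Dicer flox/flox ES cells transfected with GFP together with Cre, the recombinase that cuts the floxed part out of Dcr, and the Dcr WT cells were the same line transfected with GFP alone. Dcr (Dicer1 in the array's annotation) is the gene of the nuclease from whose cuts mature miRNAs arise. Both groups carried the floxed alleles, both received GFP, and RNA was taken 5 days after transfection from cultures grown on gelatin in fetal calf serum with LIF. Each group had 3 arrays, called biological triplicates in the study's methods. The Dcr KO cultures were polyclonal populations, so cells that still held Dcr could remain among them. No cells without floxed alleles were given Cre, and effects of the recombinase and of losing Dcr cannot be told apart.

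BMP ligands bind a complex of type I receptors such as BMPR1A and type II receptors such as BMPR2, and the type I receptor then phosphorylates SMAD1 and SMAD5. These enter the nucleus together with SMAD4 and switch on target genes, among them the Id genes and the inhibitory SMADs, which damp the same signal. In mouse ES cells cultured with LIF, BMP4 or serum helps to hold the undifferentiated state, and Id proteins are known as mediators of this effect, since they bind E proteins and keep them from acting with lineage-specifying transcription factors.

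Dcr is needed to make most mature miRNAs, and some are shown for that reason. They are members of the mir-295 cluster, the dominant one in ES cells, and of less abundant families with the same or a shifted seed. Their levels were not measured on these arrays. The mature sequences are those of RefSeq (GRCm38.p6), 5′ to 3′, with the seed, bases 2 to 8, in capitals. The mir-295 cluster lies on chromosome 7, mmu-miR-302b on chromosome 3, and mmu-miR-17 and mmu-miR-20a on chromosome 14.
mmu-miR-291a-3p: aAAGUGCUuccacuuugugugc
mmu-miR-294-3p: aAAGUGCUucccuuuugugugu
mmu-miR-295-3p: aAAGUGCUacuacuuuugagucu
mmu-miR-302b-3p: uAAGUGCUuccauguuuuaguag
mmu-miR-17-5p: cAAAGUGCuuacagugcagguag
mmu-miR-20a-5p: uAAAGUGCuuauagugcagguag
The first 4 share the seed AAGUGCU, and mmu-miR-17-5p and mmu-miR-20a-5p share AAAGUGC, so that the hexamer AAGUGC stands in every seed shown, placed 1 base later in the last pair. Target sites in the members' transcripts were not analysed here.

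Promoters are given for Smad6 and Id3, the members whose groups did not overlap. Each window runs from 250 bases before to 50 bases after the transcription start in RefSeq (GRCm38.p6), and is written 5′ to 3′ on the gene's own strand. Capitals mark matches, on either strand, to motifs that SMAD proteins are known to bind: GGCGCC, a GC-rich site, GTCTAGAC, the palindromic site, and CAGAC or its reverse complement GTCTG.
Smad6, chr9:64022010-64022309, minus strand: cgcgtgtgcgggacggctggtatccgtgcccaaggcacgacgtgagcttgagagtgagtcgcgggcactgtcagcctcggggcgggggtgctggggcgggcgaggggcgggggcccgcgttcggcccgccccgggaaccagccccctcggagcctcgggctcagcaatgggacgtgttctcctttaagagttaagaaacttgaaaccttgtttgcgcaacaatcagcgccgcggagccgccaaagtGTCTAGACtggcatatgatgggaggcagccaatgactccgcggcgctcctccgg
Id3, chr4:136143572-136143871, plus strand: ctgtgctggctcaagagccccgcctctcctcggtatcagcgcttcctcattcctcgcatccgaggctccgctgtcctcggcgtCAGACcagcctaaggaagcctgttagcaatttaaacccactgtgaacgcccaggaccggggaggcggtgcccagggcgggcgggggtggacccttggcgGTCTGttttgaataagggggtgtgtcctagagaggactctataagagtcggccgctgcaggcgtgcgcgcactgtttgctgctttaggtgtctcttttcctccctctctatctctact
In the Smad6 window GTCTAGAC began 4 bases before the start site, and 0.213% of all 32851 promoter windows of the same length held that motif. In the Id3 window CAGAC began 167 bases and GTCTG 68 bases before the start site, letters that 49.6% of all windows held in one orientation or the other. GGCGCC was in neither window. It was in windows of 4 other members, Bmpr1a, Bmpr2, Smad5 and Id2, and in 11.9% of all windows. RefSeq windows were found for 8 of the 10 members, without Id1 and Smad7. A match describes the letters only and is not a measured site.

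Across the whole array, 1171 of 8782 tested genes (13.3%) passed an adjusted p of 0.05 (limma, Benjamini-Hochberg), with 607 higher (6.91%) and 564 lower (6.42%) in Dcr KO cells. Arrays of one group correlated at 0.992 or above over all 45037 probe sets, and arrays of different groups at 0.984 to 0.994, so these ranges overlapped. Dicer1 itself checked the labels: its log2 value fell by 1.33 in Dcr KO cells (limma adjusted p = 0.0134), and both of its probe sets were lower on every Dcr KO array than on any Dcr WT array. Probe set 1427941_at was at 6.39, 6.76 and 5.95 on the Dcr KO arrays and at 8.29, 8.51 and 7.82 on the Dcr WT arrays. The other, 1460571_at, had a smaller difference of -0.82 and did not pass (adjusted p = 0.0908 by limma over probe sets). All 10 ES cell markers examined, Pou5f1, Nanog and Sox2 among them, were above the minimum. By limma 0 of them passed the test, with 5 at an unadjusted p under 0.05, against 32% of all tested genes. On every Dcr KO array 4 of the 10 were above all Dcr WT arrays (Pou5f1, Sox2, Zfp42 and Dppa5a) and 2 were below (Tdgf1 and Utf1). Of all tested genes, 17.7% had all Dcr KO arrays above and 39.0% had no overlap in either direction. The summed linear level of the 10 markers was 49978 to 51322 in Dcr KO cells and 45218 to 49591 in Dcr WT cells. Of the markers of other cell types, 1 of 8 for primitive endoderm, 3 of 6 for trophectoderm, 1 of 6 for primitive streak and mesoderm, 2 of 6 for neural cells and 1 of 7 for fibroblasts reached the minimum, and 0 of these 8 passed the test (limma). Of the 8, Mixl1 had an unadjusted p under 0.05, with a log2 difference of -0.64 (limma adjusted p = 0.109) and no overlap. Among the 25 markers under the minimum, 9 were higher on every Dcr KO array than on any Dcr WT array. These were Col3a1 (1.22), Sox1 (0.89), Kdr (0.74), Postn (0.72), Dcn (0.65), Pax6 (0.58), Cdx2 (0.48), Gata6 (0.32) and Map2 (0.21). Another 3 were lower, Fgf8 (-1.52), Col1a2 (-0.71) and Thy1 (-0.62). The share over all genes under the minimum was not computed, and the part of these markers in the results on the 10 genes was not tested. The endoderm markers Gata4, Gata6 and Sox17 had mean log2 values from 1.79 to 1.99, while Dab2, the endoderm marker over the minimum, was at 4.84. In bulk samples such as these, fewer cells of a type and less RNA per cell cannot be told apart.

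**Figure D1:**
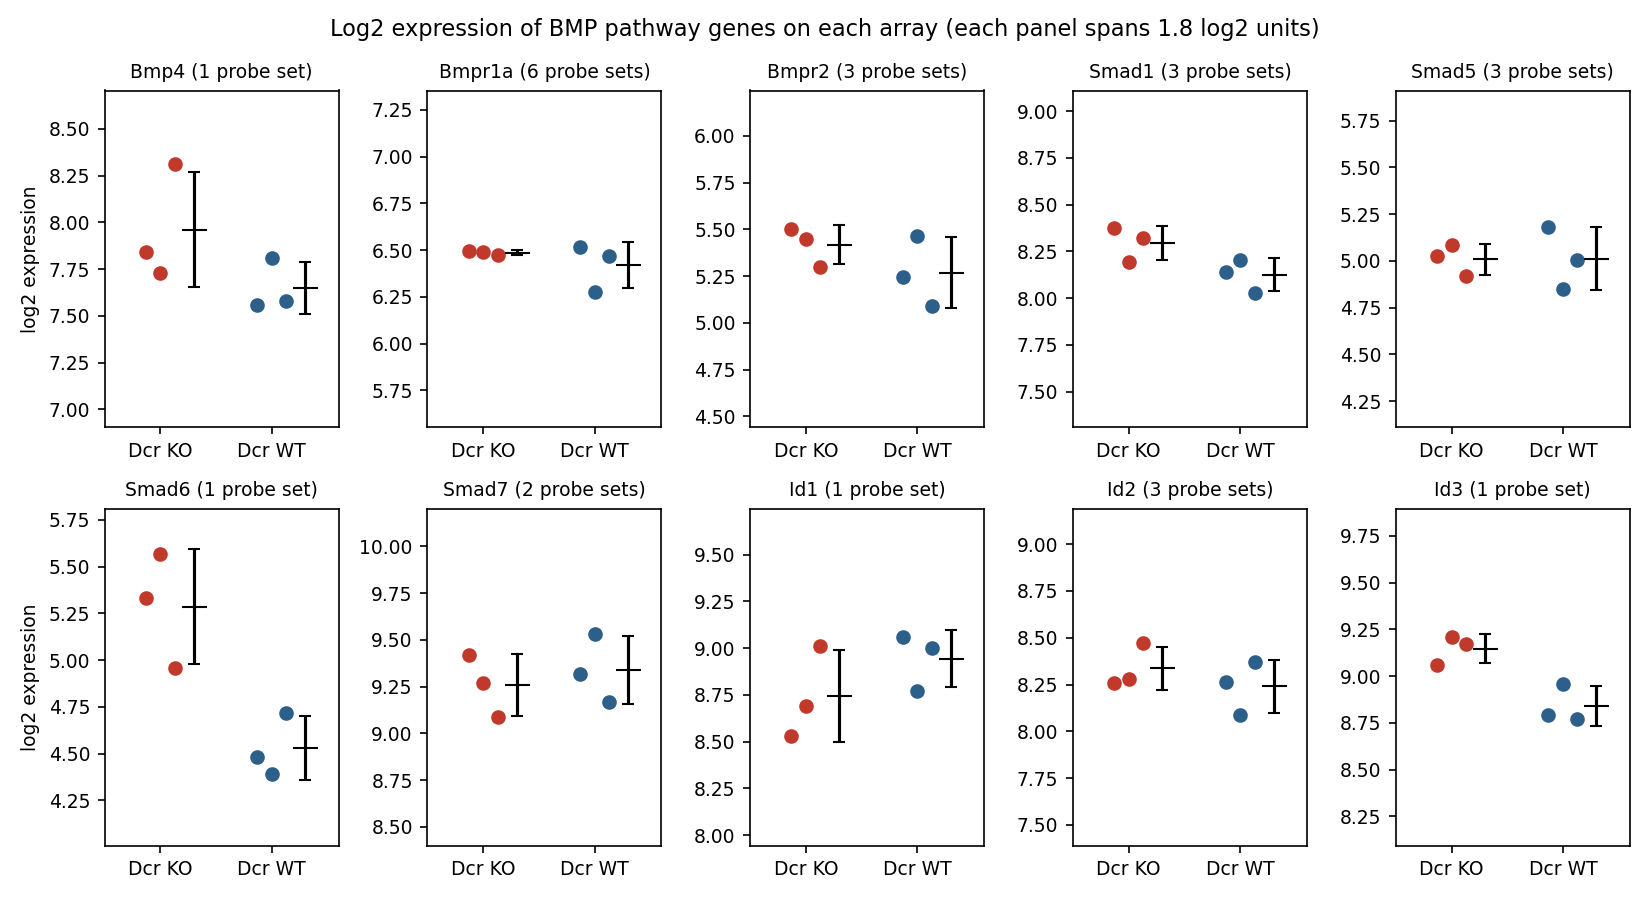
Log2 expression of the 10 genes on each array, with Dcr KO arrays (red) left of Dcr WT arrays (blue) in replicate order, and the group mean with 1 SD (black, n = 3 each) beside the points. Every panel spans the same number of log2 units around its own centre. For Smad6 and Id3 all Dcr KO points lie above all Dcr WT points, and for the other 8 genes the groups overlap.

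Of the 10 members, 1 (Smad6) passed the test as higher in Dcr KO cells, against 6.91% of all tested genes, and 0 passed as lower, against 6.42% (limma, Benjamini-Hochberg over 8782 genes). Without adjustment 2 members, Smad6 and Id3, had p under 0.05 (limma), against 32% of all tested genes. The groups did not overlap for the same 2 members, in both with all Dcr KO arrays above, while this held in that direction for 17.7% of all tested genes and in either direction for 39.0%. Differences were above 0 for 7 members, against 47.0% of all tested genes. The median over the 10 was 0.12 on the log2 scale, against -0.02 over all tested genes. Read against the shares over the whole array, these counts say nothing particular to the 10 genes. For the 9 members that did not pass, the 95% intervals of the gene values lay between 0.687-fold and 1.62-fold. The gene values of Bmpr1a, Bmpr2, Smad5 and Id2 average in probe sets under the minimum, and some single tested probe sets had wider intervals. That of 1425491_at of Bmpr1a ran up to 1.92-fold and that of 1433641_at of Smad5 down to 0.649-fold, so larger changes of these genes are not excluded.

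Bmp4 encodes the ligand of the pathway best known in ES cell culture. Its single probe set gave log2 values of 7.84, 7.73 and 8.31 in Dcr KO cells and 7.56, 7.81 and 7.58 in Dcr WT cells. Replicate 3 of the Dcr KO cells was above all other arrays, and the remaining arrays of the groups overlapped. The difference was 0.31 (SE 0.16, 95% interval -0.07 to 0.69), a 1.24-fold higher mean in Dcr KO cells that did not pass the test (limma adjusted p = 0.234). Without replicate 3 of the Dcr KO cells the difference was 0.14.

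Neither receptor gene passed the test. Bmpr1a, the type I receptor, had gene values of 6.50, 6.49 and 6.47 in Dcr KO cells and 6.52, 6.28 and 6.47 in Dcr WT cells. The Dcr KO gene values lay closer together than for any other member (SD 0.013) and inside the range of the Dcr WT arrays. They average 6 probe sets, and the tested ones taken alone had SDs from 0.036 to 0.21 in Dcr KO cells. The difference was 0.07 (95% interval -0.17 to 0.30, limma adjusted p = 0.688).

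The 6 probe sets of Bmpr1a had differences of both signs, and none of the 4 that were tested passed. Probe set 1425493_at was at 7.96, 8.03 and 8.01 in Dcr KO cells against 7.75, 7.61 and 7.79 in Dcr WT cells, without overlap, a difference of 0.28 (adjusted p = 0.141 by limma over probe sets). Probe set 1425491_at was 0.45 higher in Dcr KO cells and 1425494_s_at 0.23 higher, both with overlap, while 1425492_at was 0.13 lower. The last 2 of the 6, 1445413_at and 1451729_at, were under the minimum, so no test was made of them. Of these, 1451729_at had values of 3.17, 2.94 and 3.00 in Dcr KO cells and 3.52, 3.49 and 3.50 in Dcr WT cells, lower on every Dcr KO array. The mean over the 4 probe sets above the minimum, an alternative chosen after seeing the data, gave a difference of 0.21 for Bmpr1a (limma adjusted p = 0.281), and the brightest probe set gave -0.13.

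Bmpr2 encodes the type II receptor, which activates the type I receptor once a ligand is bound. Its gene values were 5.50, 5.45 and 5.30 in Dcr KO cells and 5.25, 5.47 and 5.09 in Dcr WT cells. All Dcr KO values lay above 2 of the 3 Dcr WT arrays, and replicate 2 of the Dcr WT cells lay among them. The difference was 0.15 (95% interval -0.14 to 0.44, limma adjusted p = 0.445). Only 1434310_at of the 3 probe sets reached the minimum, at 9.86, 9.84 and 9.68 in Dcr KO cells and 9.70, 9.91 and 9.35 in Dcr WT cells, a difference of 0.14. Replicate 3 of the Dcr WT cells was the low array there, and without it the difference was -0.01.

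Smad1 and Smad5 encode the SMADs that the type I receptor phosphorylates. Smad1 was at 8.37, 8.19 and 8.32 in Dcr KO cells and at 8.14, 8.21 and 8.03 in Dcr WT cells. The groups overlapped by a single array on each side, replicate 2 of each. The difference was 0.17 (95% interval -0.07 to 0.41, limma adjusted p = 0.289). All 3 probe sets had positive differences, 0.17, 0.23 and 0.11, and for 1448208_at the groups did not overlap, with 9.07, 8.93 and 9.08 in Dcr KO cells and 8.84, 8.85 and 8.69 in Dcr WT cells (adjusted p = 0.220 by limma over probe sets). The gene values of Smad5 averaged 5.01 ± 0.08 in Dcr KO cells and 5.01 ± 0.17 in Dcr WT cells (SD, n = 3 each).

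For Smad5 the arrays gave 5.03, 5.08 and 4.92 in Dcr KO cells and 5.18, 4.85 and 5.00 in Dcr WT cells, so that the Dcr KO arrays fell within the range of the Dcr WT arrays. The difference was -0.0022 with a 95% interval of -0.27 to 0.27 (limma adjusted p = 0.993). The sign of so small a difference carries no information, since the probe sets behind it differed in sign. Probe set 1433641_at was 0.27 lower in Dcr KO cells and 1451873_a_at was 0.35 higher, and neither passed the test (adjusted p = 0.295 and 0.284 by limma over probe sets). The third, 1421047_at, was under the minimum.

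**Figure D2:**
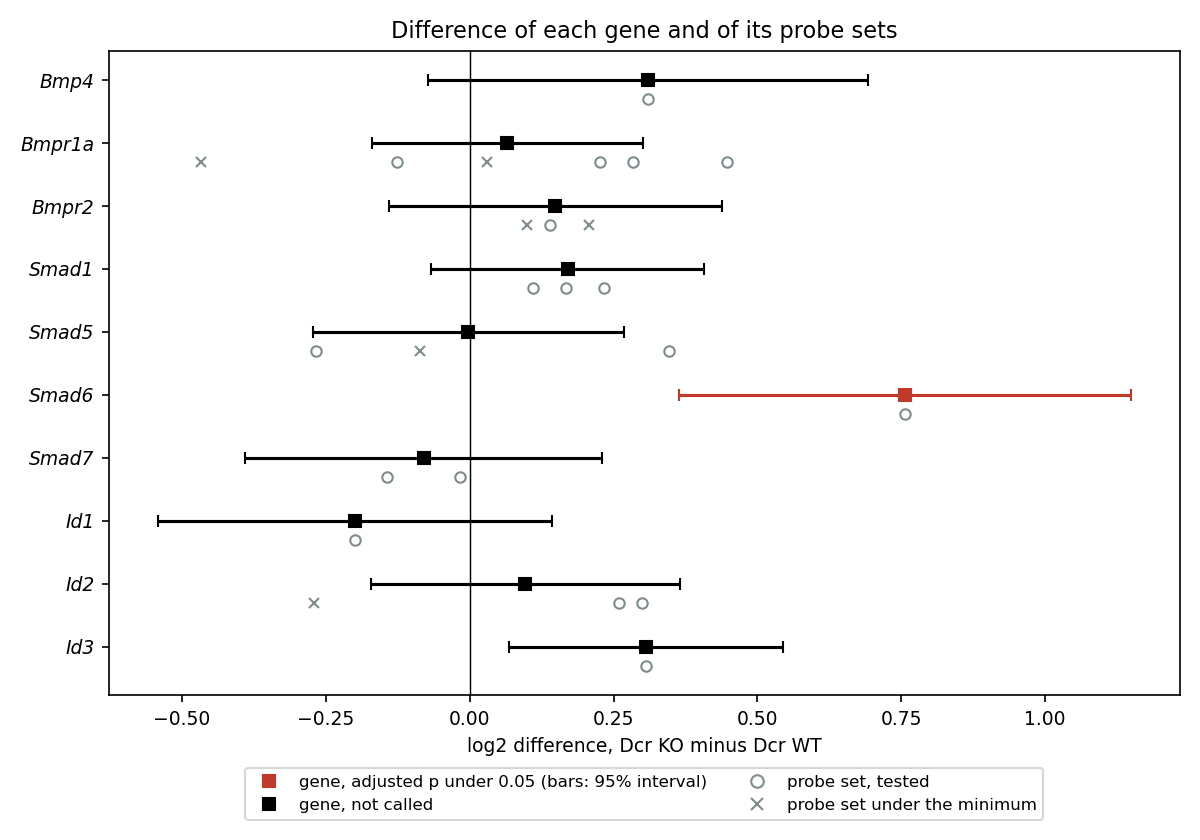
Difference in log2 value (Dcr KO minus Dcr WT) for the 10 genes (squares, with 95% intervals from limma) and for their probe sets (circles if tested, crosses if under the minimum). The interval of Smad6, 0.36 to 1.15, and that of Id3, 0.07 to 0.54, lie above 0, and Smad6 alone passed after adjustment (red). The probe sets of Bmpr1a, Smad5 and Id2 lie on both sides of 0.

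Of the inhibitory SMADs, Smad6 passed the test and Smad7 did not. Smad6 encodes the inhibitory SMAD that acts mainly on the BMP branch, by binding BMP type I receptors and by competing with SMAD4 for SMAD1. Its single probe set, 1422771_at, gave log2 values of 5.33, 5.57 and 4.96 in Dcr KO cells against 4.48, 4.39 and 4.72 in Dcr WT cells. Every Dcr KO array was above every Dcr WT array, by the least between replicate 3 of the Dcr KO cells and replicate 3 of the Dcr WT cells. Smad6 averaged 5.29 ± 0.31 in Dcr KO cells and 4.53 ± 0.17 in Dcr WT cells (SD, n = 3 each), a difference of 0.76 (SE 0.17) or 1.69-fold, with a 95% interval of 0.36 to 1.15 (limma adjusted p = 0.0288). This was the highest difference of the 10 members and the 285th highest of the 8782 tested genes.

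The call on Smad6 was close to the threshold. Adjusted over 18789 probe sets in place of genes, the same values gave an adjusted p of 0.0531 by limma. Left out in turn, the arrays gave differences from 0.62 to 0.92, all above 0, and adjusted p from 0.0157 to 0.0828, and of these 6 fits the call held only in the one without replicate 3 of the Dcr KO cells. The study's list of candidate targets of the mir-295 cluster holds Smad6. Listing required a predicted target site and a rise both after loss of Dcr and in separate lines without the mir-295 cluster. The part drawn from loss of Dcr rests on these arrays and is not independent of them. Arrays of the mir-295 deletion lines were not examined here. The summed level of the ES cell markers, which the brightest of them dominate, was also higher on every Dcr KO array, although Tdgf1 and Utf1 were lower there, and whether it bears on Smad6 was not tested.

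**Figure D3:**
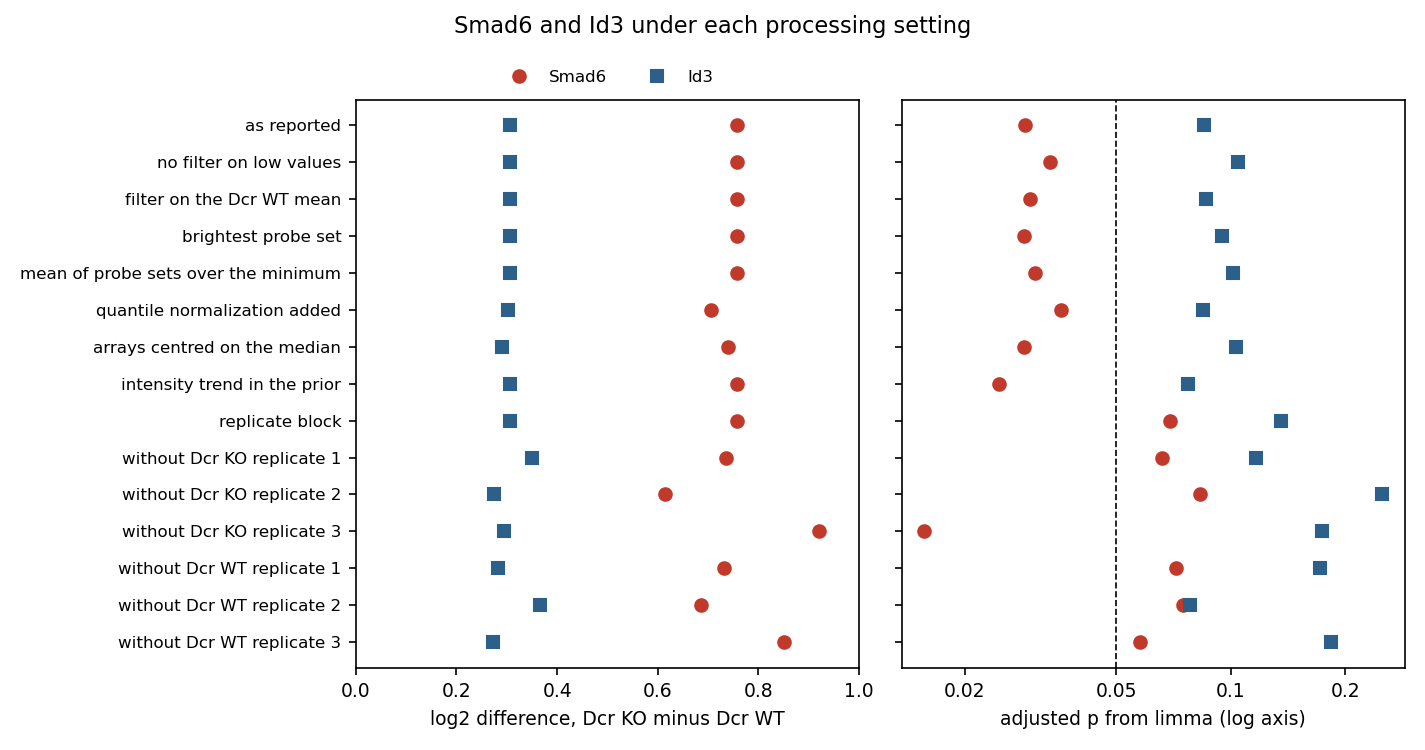
Smad6 (red circles) and Id3 (blue squares) under each way of processing, with the log2 difference, Dcr KO minus Dcr WT, on the left and the adjusted p from limma on a log axis on the right (dashed line, 0.05). Differences of Smad6 stay between 0.62 and 0.92, and its adjusted p lies on both sides of 0.05. Id3 stays above 0.05 throughout.

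Smad7, the other inhibitory SMAD, acts on both the BMP and the TGF-beta/Activin branches. Its values were 9.42, 9.27 and 9.09 in Dcr KO cells and 9.32, 9.53 and 9.17 in Dcr WT cells. The groups overlapped, and the difference of -0.08 had a 95% interval of -0.39 to 0.23 (limma adjusted p = 0.710). Both probe sets had small negative differences, -0.14 for 1423389_at and -0.02 for 1443771_x_at. Without replicate 3 of the Dcr KO cells the difference of Smad7 was 0.0050, against 0.92 for Smad6. Whether Smad6 and Smad7 differed in their response was not tested.

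The Id genes are direct targets of SMAD1 and SMAD5 that encode inhibitors of E proteins, and none of the 3 passed the test (limma). Id1 had log2 values of 8.53, 8.69 and 9.01 in Dcr KO cells and 9.06, 8.77 and 9.0 in Dcr WT cells. Replicate 3 of the Dcr KO cells lay within the Dcr WT range and the other Dcr KO arrays lay below it. The difference was -0.20 (95% interval -0.54 to 0.14, limma adjusted p = 0.381), and it ran from -0.33 to -0.09 with an array left out.

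Id2 was measured by 3 probe sets, and its gene values were 8.26, 8.28 and 8.47 in Dcr KO cells and 8.26, 8.09 and 8.37 in Dcr WT cells. The groups overlapped, with a difference of 0.10 (95% interval -0.17 to 0.36, limma adjusted p = 0.595). With an array left out it ran from 0.02 to 0.16. The 2 probe sets above the minimum both had higher means in Dcr KO cells, and the one under it had a lower mean. Probe set 1435176_a_at was at 12.04, 11.87 and 11.99 in Dcr KO cells against 11.63, 11.65 and 11.72 in Dcr WT cells, without overlap, a difference of 0.30 (adjusted p = 0.124 by limma over probe sets). Probe set 1422537_a_at was 0.26 higher in Dcr KO cells, with overlap, and 1453596_at, which was under the minimum, gave 3.64, 3.51 and 3.57 in Dcr KO cells against 3.82, 3.71 and 4.0 in Dcr WT cells. Over the 2 probe sets above the minimum, the alternative chosen after seeing the data, Id2 had a difference of 0.28 (limma adjusted p = 0.195), and from 1435176_a_at alone one of 0.30 (0.0869).

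Id3 had log2 values of 9.06, 9.21 and 9.17 in Dcr KO cells and 8.79, 8.96 and 8.77 in Dcr WT cells, from a single probe set. Every Dcr KO array was above every Dcr WT array. Its mean was 9.15 ± 0.08 in Dcr KO cells and 8.84 ± 0.10 in Dcr WT cells (SD, n = 3 each). The difference of 0.31 (SE 0.10, 95% interval 0.07 to 0.54) was 1.24-fold. It did not pass after adjustment (limma adjusted p = 0.0853), nor under any of the 14 alternatives tried, where adjusted p ran from 0.077 to 0.250. Id1 and Id3 thus had differences of opposite sign, but the difference between them was not tested.

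No array stood at one end of its group for all members. Within the Dcr KO cells, replicate 3 was the highest array for 3 members, Bmp4, Id1 and Id2, and the lowest for 5, Bmpr1a, Bmpr2, Smad5, Smad6 and Smad7. Within the Dcr WT cells, replicate 2 was the highest for 5 members and the lowest for the other 5. The spread within a group ran, as an SD of log2 values, from 0.013 for Bmpr1a to 0.31 for Bmp4 in Dcr KO cells and from 0.089 for Smad1 to 0.19 for Bmpr2 in Dcr WT cells. These are SDs of gene values, which average 6 probe sets for Bmpr1a and 1 for Bmp4, so they are not alike between members.

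At the level of probe sets, 18 of the members' 24 reached the minimum and 0 of these passed the test, against 7.75% of 18789 probe sets (limma, Benjamini-Hochberg). Unadjusted p was under 0.05 for 4 of the 18 (limma). Over all tested genes that share was 32%, and over all tested probe sets it was not computed. Groups did not overlap for 5 of the 18, those of Smad6 and Id3 and 1 each of Bmpr1a, Smad1 and Id2 described above, against 35.7% of all tested probe sets. In all 5 the Dcr KO arrays were above. Differences were above 0 for 13 of the 18, and that share over all tested probe sets was not computed. The median of the 18 was 0.23, against -0.01 over all tested probe sets. Probe sets of a gene share its transcripts and are not independent measurements.

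The wider pathway was listed by role, in 83 genes with the 10 members among them. Of these, 78 had a probe set with a symbol of their own and 42 were tested. In Dcr KO cells 3 were higher, Smad6, Gdf3 and Tob1, and 0 were lower (limma, Benjamini-Hochberg), against 6.91% and 6.42% of all tested genes, while 15 had an unadjusted p under 0.05, against 32% of all tested genes. The median difference of the 42 was 0.10.

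Of the ligands, 4 of 14 were tested, and Gdf3 rose. Gdf3 encodes a TGF-beta family ligand of pluripotent cells that is known to inhibit BMPs and to signal like Nodal. It was at 8.94, 9.17 and 9.35 in Dcr KO cells against 8.44, 8.32 and 8.64 in Dcr WT cells, with no overlap, a difference of 0.69 (SE 0.14, limma adjusted p = 0.0216). The call was lost without replicate 2 of the Dcr KO cells or replicate 1 or 2 of the Dcr WT cells (adjusted p up to 0.0701). Bmp2, which signals through the same receptors as Bmp4, had a difference of 0.58 (limma adjusted p = 0.128), and Bmp8b had -0.39 (0.062).

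Receptors and co-receptors gave 0 calls by limma among 7 tested, 2 of which had an unadjusted p under 0.05. The most different were the co-receptor Eng at 0.59 (limma adjusted p = 0.091) and the type II receptor Acvr2b at -0.44 (0.054). Smad4, the partner of SMAD1 and SMAD5, was at 10.44, 10.41 and 10.23 in Dcr KO cells and at 10.72, 10.64 and 10.53 in Dcr WT cells. Its arrays did not overlap, with lower values in Dcr KO cells, yet the difference of -0.27 did not pass (limma adjusted p = 0.128).

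Secreted antagonists and modulators were mostly near background. Of 16, only 3 reached the minimum, and 0 of the 3 passed by limma, with 1 at an unadjusted p under 0.05. Fst, which encodes follistatin, a binder of Activins and some BMPs, gave 5.19, 5.12 and 6.53 in Dcr KO cells and 5.03, 5.50 and 4.42 in Dcr WT cells. Replicate 3 of the Dcr KO cells stood alone, and the difference of 0.63 did not pass (limma adjusted p = 0.317). Bmp1, the protease that cleaves the antagonist chordin, had a difference of 0.51 (limma adjusted p = 0.068).

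Of the intracellular regulators of SMADs, 15 of 16 were tested and Tob1 rose. Tob1 encodes an antiproliferative protein known to bind SMADs and repress BMP signalling. It was at 5.62, 5.57 and 5.50 in Dcr KO cells against 5.11, 5.07 and 5.25 in Dcr WT cells, a difference of 0.42 (SE 0.10, limma adjusted p = 0.0333), and the call was lost when any single array was left out (adjusted p 0.054 to 0.113). The phosphatase gene Ctdspl had a difference of -0.55 and the zinc finger gene Zfp423, whose product binds SMADs at BMP targets, one of 0.43, neither past the threshold (limma adjusted p = 0.312 and 0.166).

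Among the pathway's target genes, 9 of 14 were tested, and Smad6 was the 1 that passed. The median difference of the 9 was 0.10. Id4 was at 5.48, 5.43 and 6.02 in Dcr KO cells and at 5.05, 5.15 and 5.20 in Dcr WT cells, without overlap, a difference of 0.51 that did not pass (limma adjusted p = 0.076). Dusp9, a phosphatase that acts on ERK, had a difference of -0.50 (0.124). The 3 E protein genes, whose products Id proteins bind, gave 0 calls by limma, with 1 at an unadjusted p under 0.05. Of these, Tcf12 had a difference of 0.46 (limma adjusted p = 0.057), without overlap, and Tcf4 one of 0.20 (0.279).

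**Figure D4:**
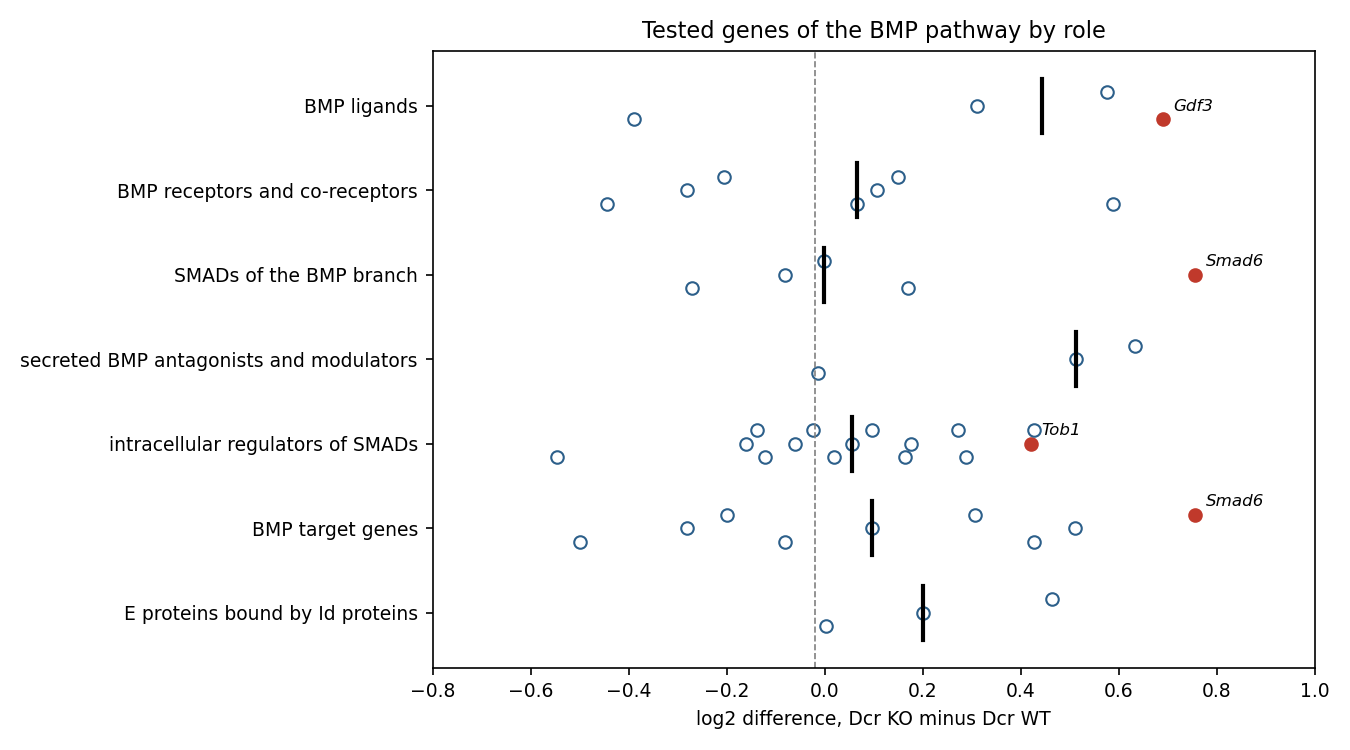
Difference in log2 value (Dcr KO minus Dcr WT) for every tested gene of the pathway, grouped by role. Filled red points passed the test, open points did not, black bars are the medians of each role and the dashed line is the median of all tested genes (-0.02). The 3 genes past the threshold, Gdf3, Smad6 (listed as a SMAD and as a target) and Tob1, lie to the right of 0, and most other genes lie on either side of it.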

How the data were processed

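The 6 arrays came as a log2 level for each of 45037 probe sets, as the authors deposited them, made with GCRMA 2.20.0 in R 2.11.1 according to the submitters' notes on processing. GCRMA corrects background and normalizes probe-level data. The study normalized these arrays together with those of chronic deletion lines for one of its comparisons. Whether the deposited values come from that step was not stated, and 0 array columns were left unused. Gene symbols came from the platform annotation, with 34945 probe sets carrying 1 symbol, 932 several and 9160 none here, and only the first were used.

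The log2 values of a gene's probe sets were averaged. Dcr KO was compared with Dcr WT by limma 3.58.1 (lmFit and eBayes, R 4.3.3) over the 8782 genes, or 18789 probe sets, whose mean log2 level reached 4 (16 on the linear scale), with Benjamini-Hochberg adjusted p-values and a threshold of 0.05. With 3 arrays against 3 an exact two-sided permutation test cannot go below 0.1, so single genes rest on limma. The study calls the arrays biological triplicates without saying how the cultures were separated, and p-values measure the spread between these arrays, which limits the precision. The fits were tested on simulated data with independent noise for each gene and array. Effects shared by many genes of an array were not simulated. Named genes are the members with their probe sets, Dicer1, other listed pathway genes past the threshold and up to 2 others per list with the largest differences. The members and lists were chosen with earlier results of these data known. Alternatives were no filter, a filter on the Dcr WT mean, the brightest probe set, the probe sets over the minimum, added quantile normalization, centred arrays, an intensity trend, a replicate block and each array left out, 14 in all. Tables and figures used Python 3.11.15, pandas 2.3.3, numpy 2.4.6 and matplotlib 3.10.9.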

Additional observations from a re-analysis of the deposited data

How the results depend on the processing

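Of the 10 members, 1 passed the test as reported, and the count was 0 to 1 with an array left out (limma). It was 1 only without replicate 3 of the Dcr KO cells. Smad6 was past the threshold in 8 of the 14 alternatives and above 0 in all of them. Deviations of same-numbered arrays from their group means correlated at -0.22, -0.02 and 0.03, and those of differently numbered arrays at -0.23 to 0.31. With 3 arrays per group these values cannot decide whether replicate numbers paired the arrays, and the labels give only the numbers. With a replicate block 0 members passed, and Smad6 had an adjusted p of 0.0694 (limma). For the listed pathway genes the count of 3, all higher, became 5 with the brightest probe set, where 2 were lower (Amhr2 and Bmp8b). It was 6 with the mean of the probe sets over the minimum (chosen after seeing the data), where 2 were lower (Amhr2 and Nedd4l). With arrays centred on the median it was 5, with 2 lower (Acvr2b and Bmp8b), and with quantile normalization 4, with 1 lower (Acvr2b). So the absence of lower genes depended on the processing. The count was 1 with a replicate block and 0 to 3 with an array left out. The genes that passed also changed. Without replicate 2 of the Dcr WT cells they were Bmp2, Eng and Zfp423, and without replicate 1 of the Dcr WT cells Tcf12 alone. Smad6, Gdf3 and Tob1 passed in neither of these fits. Over all tested genes the count of 1171 was 597 with a replicate block and 357 to 783 with an array left out. Centring moved the split over all genes to 584 higher and 646 lower, and quantile normalization to 562 and 624. The causes of these shifts were not tested.

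The sign changed for 3 members near 0: Bmpr1a was at -0.13 with the brightest probe set and at -0.0056 without replicate 2 of the Dcr WT cells, Smad5 at 0.04 with the mean of probe sets over the minimum, at 0.04 without replicate 3 of the Dcr KO cells and at 0.08 without replicate 1 of the Dcr WT cells, and Smad7 at 0.0050 without replicate 3 of the Dcr KO cells and at 0.015 without replicate 2 of the Dcr WT cells. With an array left out their differences ran from -0.0056 to 0.11 for Bmpr1a, from -0.083 to 0.083 for Smad5 and from -0.17 to 0.015 for Smad7. It also changed for the probe sets 1434310_at of Bmpr2, at -0.012 without replicate 3 of the Dcr WT cells (range -0.012 to 0.27), and 1443771_x_at of Smad7, at 0.05 without replicate 3 of the Dcr KO cells and at 0.078 without replicate 2 of the Dcr WT cells (range -0.097 to 0.078). The probe set of Smad6 passed only without replicate 3 of the Dcr KO cells (adjusted p = 0.0467) and 1435176_a_at of Id2 only with an intensity trend (adjusted p = 0.0345, limma). Gdf3 lost its call with the brightest probe set and without replicate 2 of the Dcr KO cells or replicate 1 or 2 of the Dcr WT cells, Tob1 with a replicate block and with any array left out. The Dcr WT level of Smad6 was 4.53, near the minimum of 4, and whether its signal over background bears on the call was not tested.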
